A study of Mus musculus with 7 samples.

Results

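The muscle atrophy ubiquitin ligases and their FoxO regulators were examined in fast-twitch muscle that lacks fMyBP-C, the fast skeletal form of myosin-binding protein C. The set was named by symbol and held 9 of the 12239 genes with deposited values. It was made up of the F-box genes Fbxo32, Fbxo30 and Fbxo40, the MuRF genes Trim63, Trim54 and Trim55, and the FoxO genes Foxo1, Foxo3 and Foxo4. All 9 had a value in every library. RNA sequencing had been done on tibialis anterior (TA), a fast muscle of the front of the lower leg, from male FVBN mice aged 5 to 6 months. The compared groups were wild-type mice (WT, 4 libraries) and mice with a disrupted Mybpc2 gene (C2-/-, 3 libraries), in which a Neo cassette between LoxP sites stood in place of exons 2 to 22. No promoter or Cre limited the allele to muscle, and no source used here says that the groups were littermates. The design text gave the same number of animals in both groups, 1 more than the C2-/- libraries analysed here, and the methods gave a wider age range for the TA samples. The study's text counts as many mice in each group as there are libraries here, so the libraries were taken as separate mice. The study examined the loss of fMyBP-C in young and in aged TA muscle, and only the young muscle is analysed here.

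Ubiquitin ligases choose which proteins are tagged with ubiquitin for the proteasome. Fbxo32 (atrogin-1) and Trim63 (MuRF1) are the classical markers of muscle wasting, and their transcription rises in fasting, denervation, disuse and glucocorticoid excess. FoxO transcription factors drive both genes when insulin and Igf1 signalling is low, because the kinase Akt otherwise phosphorylates FoxO proteins and keeps them out of the nucleus. MuRF1 attaches to titin in the sarcomere and acts on thick-filament proteins, among them myosin-binding protein C.

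The 250 bases before and 50 bases after an annotated start site were read from RefSeq (GRCm38.p6) and were found for 6 of the 9 genes, in 7 windows because Fbxo40 had 2. They were searched on both strands for the FoxO core motif GTAAACA, the insulin response element CAAAACA, the glucocorticoid receptor half-site AGAACA and the E-box CANNTG of myogenic factors. The FoxO core was found in 1 window, that of Trim63, against 3.65% of 32851 RefSeq windows of the same length. It began 194 bases upstream of the start site on the opposite strand and adjoined a glucocorticoid half-site, also on the opposite strand, that began 200 bases upstream. The half-site was also found in Trim54, 222 bases upstream, and in the second window of Fbxo40, and it was present in 19.0% of all windows. No member window held CAAAACA, which occurred in 6.28% of all windows. An E-box was present in the windows of Foxo1, Trim63 and Trim54 and in both Fbxo40 windows, and 72.3% of all windows held one. Such matches describe the letters only. The annotated start sites of the Fbxo30 window and of both Fbxo40 windows lie inside the gene spans given below, not at their outer ends. All of the Fbxo30 window lies inside its span. The windows of the 3 ligases that were lower in C2-/- muscle and of Fbxo30, the ligase that was higher, are printed here as a reference for the values that follow. For Fbxo40 only the first window is printed, not the second, which holds the half-site. Capitals mark the joined glucocorticoid half-site and FoxO core in Trim63 and the glucocorticoid half-site in Trim54.
Trim63 (chr4:134314870-134315169, plus strand): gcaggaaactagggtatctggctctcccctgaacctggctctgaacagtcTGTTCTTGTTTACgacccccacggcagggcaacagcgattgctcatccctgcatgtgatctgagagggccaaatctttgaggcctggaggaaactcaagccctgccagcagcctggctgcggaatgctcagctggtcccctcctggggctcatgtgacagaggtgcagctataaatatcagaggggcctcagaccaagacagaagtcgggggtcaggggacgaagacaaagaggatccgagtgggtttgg
Trim54 (chr5:31116362-31116661, plus strand): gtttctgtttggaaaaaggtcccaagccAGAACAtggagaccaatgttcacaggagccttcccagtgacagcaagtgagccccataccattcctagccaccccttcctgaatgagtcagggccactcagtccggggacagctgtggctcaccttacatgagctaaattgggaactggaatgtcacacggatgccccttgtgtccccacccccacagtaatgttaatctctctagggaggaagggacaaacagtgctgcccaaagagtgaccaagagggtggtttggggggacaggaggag
Fbxo40 (chr16:36990418-36990717, minus strand): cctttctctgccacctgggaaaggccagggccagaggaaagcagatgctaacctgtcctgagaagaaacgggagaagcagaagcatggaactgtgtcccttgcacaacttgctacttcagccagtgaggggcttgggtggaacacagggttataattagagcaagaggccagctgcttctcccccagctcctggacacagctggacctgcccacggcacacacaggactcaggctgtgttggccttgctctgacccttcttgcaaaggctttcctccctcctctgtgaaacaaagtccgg
Fbxo30 (chr10:11281337-11281636, plus strand): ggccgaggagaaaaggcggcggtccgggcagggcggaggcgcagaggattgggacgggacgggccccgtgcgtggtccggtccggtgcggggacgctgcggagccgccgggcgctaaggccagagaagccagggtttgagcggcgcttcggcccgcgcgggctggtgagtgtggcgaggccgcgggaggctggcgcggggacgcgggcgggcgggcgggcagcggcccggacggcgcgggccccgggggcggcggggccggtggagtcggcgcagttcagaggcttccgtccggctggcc

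The 7 libraries were unequal in depth. WT replicates 1 to 3 held between 14929214 and 15464499 reads in the table, whereas WT replicate 4 held 4683853 and the C2-/- libraries held between 2613277 and 4917936. As a check of the labels, the targeted gene Mybpc2 lay between 12.41 and 12.85 in WT and between -0.47 and 1.67 in C2-/- on the log2 scale. Changes across all genes followed GC content, as the plot of log2 change against GC content shows. The median log2 change was 0.91 in genes under 45% GC and -1.42 in genes at or above 55% GC. The changes of the 9 genes are therefore also given after a GC correction, in which a smooth curve on transcript GC content was removed from each library. The correction removes any difference tied to GC content, whatever its source. Skeletal muscle fibre markers were present in every library, with none of 10 at 0 reads. Their summed level was 161703 to 199160 CPM (reads per 1000000 reads of the library) in WT and 88134 to 111721 in C2-/-, and 5 of the 10 were lower and none higher in C2-/-. The 8 fibro-adipogenic markers summed to 893 to 1018 in WT and 1702 to 2005 in C2-/-, with 5 higher and 2 lower. Of all genes, 25.0% were lower and 20.2% higher. In bulk muscle, fewer cells of a type and less RNA per cell cannot be told apart, and the part of these shifts in the values below was not tested.

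Of the 9 genes, 5 passed the threshold, set at 0.05 for the adjusted p (limma, Benjamini-Hochberg over all 12239 genes) and at 1.5-fold for the change, beside 45.2% of all genes tested. The share in the set was near this background, so it is not a result about the set. Trim54, Fbxo40, Foxo4 and Trim63 fell and Fbxo30 rose, where 25.0% of all genes fell and 20.2% rose. The same 5 genes were those whose WT and C2-/- values did not overlap, and 49.3% of all genes had groups without overlap. After GC correction 2 of the 9, Fbxo40 and Trim54, remained past the threshold as falls and none rose, beside 20.6% of all genes, of which 8.33% fell and 12.3% rose. With WT replicate 4 as the only WT library, these same 2 genes passed, beside 4.53% of all genes. The plot of values by library shows each gene in each library.

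**Figure D1:**
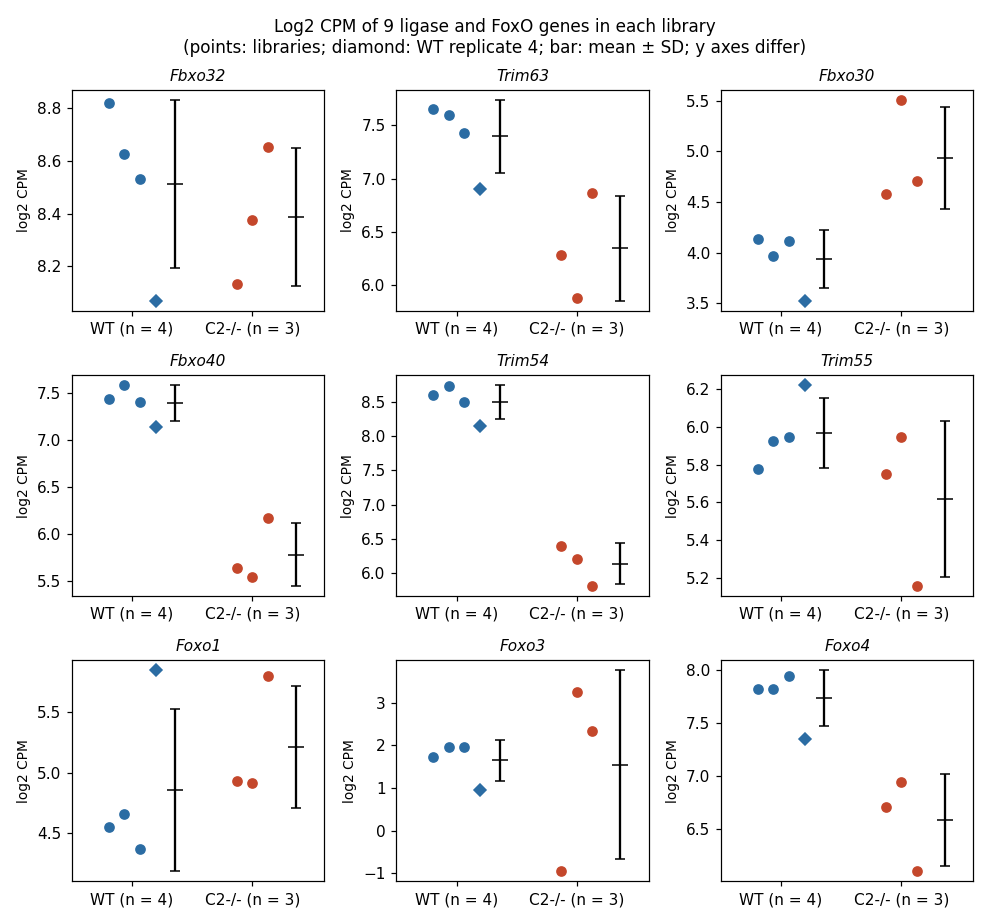
Log2 CPM (y axis, scaled separately in each panel) of the 9 genes in 4 WT libraries (blue, WT replicate 4 as a diamond) and 3 C2-/- libraries (red), with the mean and SD of each group as black bars. The groups are apart in the panels of Trim63, Fbxo30, Fbxo40, Trim54 and Foxo4 and overlap in the other 4 panels.

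Among the F-box genes, the atrogin-1 gene Fbxo32 was near its WT level in C2-/- muscle, whereas Fbxo40 was 3.06-fold lower and Fbxo30 was 1.99-fold higher. F-box proteins are the substrate-binding subunits of SCF ligases, in which they are joined to a cullin by Skp1. Fbxo32 lies on chromosome 15 (58175879 to 58214892, minus strand; RefSeq positions on GRCm38.p6 here and for the other genes). Its log2 values were 8.82, 8.63, 8.53 and 8.07 in WT replicates 1 to 4 and 8.13, 8.37 and 8.65 in C2-/- replicates 1 to 3. All 3 C2-/- values lay inside the WT range, whose lowest point was WT replicate 4. Fbxo32, Trim54 and Foxo1 each overlap an annotated antisense gene (Gm15943, Gm15469 and Gm20402), and because the use of strand in counting was not given, reads of the partners cannot be told apart. The means were 8.51 ± 0.32 (SD, n = 4) and 8.39 ± 0.26 (SD, n = 3), and the log2 change was -0.12 (limma: SE 0.21, adjusted p = 0.636). Its 95% interval was -0.58 to 0.33. Against WT replicate 4 alone, the only WT library of a depth near that of C2-/-, the difference was 0.32, and after GC correction the change was -0.55 (limma adjusted p = 0.0903). Fbxo32 was among the more abundant transcripts of WT muscle, with a mean log2 value above that of 97.5% of the genes measured.

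Fbxo40 encodes a muscle-restricted F-box protein that targets Irs1, the adaptor of insulin and Igf1 receptors. It lies on chromosome 16 (36963461 to 36990530, minus strand). Its log2 values were 7.44, 7.59, 7.41 and 7.14 in WT replicates 1 to 4 and 5.64, 5.54 and 6.17 in C2-/- replicates 1 to 3. Every C2-/- value was below every WT value, by at least the distance from 6.17 to 7.14. The mean fell from 7.40 ± 0.19 (SD, n = 4) to 5.78 ± 0.34 (SD, n = 3), a log2 change of -1.61 (limma: SE 0.20, adjusted p = 0.000414) or 3.06-fold. Of the 9 genes, this fall moved least with GC correction among those past the threshold, to -1.50 (limma adjusted p = 0.00127). Against WT replicate 4 alone it was -1.35 (limma adjusted p = 0.0379). The RNA of Irs1, the substrate, rose by 1.46 on the log2 scale (limma: SE 0.20, adjusted p = 0.000666). It went from 6.30 ± 0.16 (SD, n = 4) to 7.75 ± 0.39 (SD, n = 3), and the rise was 1.69 after GC correction. The ligase acts on Irs1 protein, which RNA levels do not measure, and a link to the fall of Fbxo40 was not tested.

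Fbxo30 (MUSA1) is an F-box gene of the denervation response that is held down by BMP signalling. It lies on chromosome 10 (11281330 to 11305750, plus strand). It had few reads, between 50 and 270 per WT library and between 69 and 126 per C2-/- library. Its log2 values were 4.14, 3.97, 4.12 and 3.52 in WT replicates 1 to 4 and 4.58, 5.51 and 4.71 in C2-/- replicates 1 to 3. All C2-/- values were above all WT values, with C2-/- replicate 2 highest and WT replicate 4 lowest. The mean rose from 3.94 ± 0.29 (SD, n = 4) to 4.93 ± 0.50 (SD, n = 3), a log2 change of 0.995 (limma: SE 0.29, adjusted p = 0.0193) or 1.99-fold. This rise depended on how GC content was treated. Fbxo30 had the lowest GC content of the 9 genes, 38.2%, and its change after GC correction was -0.27 (limma adjusted p = 0.576). Without C2-/- replicate 2 the change was 0.71 and no longer passed (limma adjusted p = 0.0538).

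Of the MuRF genes, Trim54 and Trim63 fell and Trim55 did not pass the test. MuRF proteins are RING-finger ligases of the sarcomere that form dimers with each other, and MuRF3, the Trim54 product, is bound to microtubules and to the Z line. Trim54 lies on chromosome 5 (31116612 to 31137626, plus strand), and its log2 values were 8.60, 8.73, 8.50 and 8.15 in WT replicates 1 to 4 and 6.39, 6.21 and 5.81 in C2-/- replicates 1 to 3. The groups were far apart, with 56.1 to 84.0 CPM in the C2-/- libraries and 283 CPM in WT replicate 4, the lowest WT library. The mean fell from 8.50 ± 0.25 (SD, n = 4) to 6.14 ± 0.30 (SD, n = 3), a log2 change of -2.36 (limma: SE 0.20, adjusted p = 0.000162) or 5.12-fold. Of all genes measured, 6.68% had a lower log2 change. Trim54 also had the highest GC content of the set, 59.9%. After GC correction its values were 7.80, 7.90, 7.59 and 7.83 in WT and 6.97, 7.55 and 6.76 in C2-/-. The groups were still apart, with C2-/- replicate 2 just below the lowest WT library, and the change was -0.69 (limma adjusted p = 0.0327).

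Trim63 encodes MuRF1. It lies on chromosome 4 (134315120 to 134329629, plus strand), and its promoter is the window above with the joined glucocorticoid half-site and FoxO core. Its log2 values were 7.66, 7.60, 7.43 and 6.90 in WT replicates 1 to 4 and 6.28, 5.88 and 6.87 in C2-/- replicates 1 to 3. The groups were apart by a narrow margin, because WT replicate 4 at 6.90 was just above C2-/- replicate 3 at 6.87. The mean fell from 7.40 ± 0.34 (SD, n = 4) to 6.34 ± 0.49 (SD, n = 3), a log2 change of -1.05 (limma: SE 0.26, adjusted p = 0.00879) or 2.07-fold. The fall did not pass after GC correction, at -0.47 (limma adjusted p = 0.177), nor against WT replicate 4 alone, at -0.56 (limma adjusted p = 0.416). It passed whichever single library was left out, with changes from -1.31 to -0.82.

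Trim55 encodes MuRF2, which accompanies titin during sarcomere assembly. It lies on chromosome 3 (19644344 to 19692584, plus strand). Its log2 values were 5.78, 5.93, 5.94 and 6.22 in WT replicates 1 to 4 and 5.75, 5.94 and 5.16 in C2-/- replicates 1 to 3. The groups overlapped, with C2-/- replicate 3 lowest and WT replicate 4 highest. The log2 change was -0.35 (limma: SE 0.22, 95% interval -0.84 to 0.14, adjusted p = 0.213), and -0.12 without C2-/- replicate 3. Its values after GC correction also gave no call, with a change of -0.46.

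**Figure D2:**
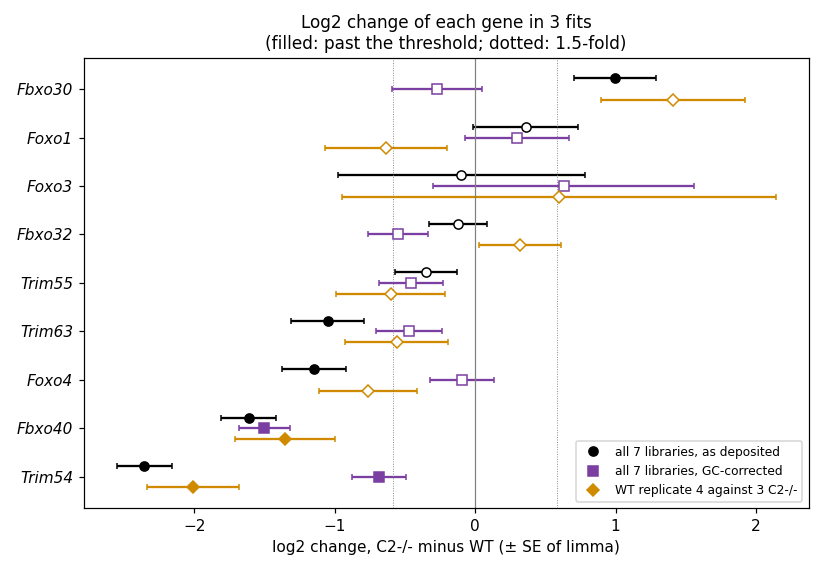
Log2 change of each gene, C2-/- minus WT, with the SE of limma as horizontal bars (x axis, log2 units) from all 7 libraries as deposited (circles), after GC correction (squares) and with WT replicate 4 as the only WT library (diamonds). Filled symbols are past the threshold, and only Fbxo40 and Trim54 are filled in all 3 fits.

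Of the FoxO factors, Foxo4 was lower in C2-/- muscle, whereas no difference in Foxo1 or Foxo3 passed the test. FoxO activity is set mainly by phosphorylation and by the place of the protein in the cell, which RNA levels do not measure. Foxo4, an X-linked gene (X chromosome, 101254261 to 101260873, plus strand), measured 7.82, 7.81, 7.94 and 7.34 on the log2 scale in WT replicates 1 to 4 and 6.71, 6.94 and 6.10 in C2-/- replicates 1 to 3. No C2-/- value reached the WT range, of which WT replicate 4 was the lowest. The mean fell from 7.73 ± 0.26 (SD, n = 4) to 6.58 ± 0.43 (SD, n = 3), a log2 change of -1.15 (limma: SE 0.23, adjusted p = 0.00315) or 2.22-fold. With a GC content of 55.2%, its change after GC correction was -0.09 (limma adjusted p = 0.803), and against WT replicate 4 alone it was -0.76 (limma adjusted p = 0.219).

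Foxo1 is the FoxO factor whose excess in muscle lowers muscle mass and slow-fibre gene expression in mice. It lies on chromosome 3 (52268337 to 52350109, plus strand). Its log2 values were 4.55, 4.65, 4.36 and 5.85 in WT replicates 1 to 4 and 4.93, 4.91 and 5.80 in C2-/- replicates 1 to 3. All 3 C2-/- values were above WT replicates 1 to 3 and below WT replicate 4. The log2 change was 0.36 (limma: SE 0.37, 95% interval -0.47 to 1.19, adjusted p = 0.443). It was 0.69 without WT replicate 4 (limma adjusted p = 0.0541) and -0.64 against WT replicate 4 alone, so its size and direction depended on which WT libraries entered. Its size also depended on C2-/- replicate 3, without which it was 0.066.

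Foxo3 drives autophagy genes as well as Fbxo32 in wasting muscle. It lies on chromosome 10 (42181845 to 42276695, minus strand). It was near the limit of detection, with 50, 58, 59 and 8 reads in WT replicates 1 to 4 and 1, 25 and 24 reads in C2-/- replicates 1 to 3. The corresponding log2 values were 1.72, 1.97, 1.95 and 0.95 in WT and -0.95, 3.25 and 2.34 in C2-/-. C2-/- replicate 1 was below and the other C2-/- libraries were above all WT values. The log2 change was -0.10 (limma: SE 0.88, 95% interval -2.06 to 1.86, adjusted p = 0.934), and it was 1.15 without C2-/- replicate 1. Foxo6, the remaining FoxO gene of the mouse and no member of the set, went from 3.43 ± 0.68 (SD, n = 4) to 1.81 ± 1.09 (SD, n = 3), a log2 change of -1.62 (limma: SE 0.56, adjusted p = 0.0377) with groups that overlapped. Its GC content was 69.1%, and its change after GC correction was 0.62.

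**Figure D3:**
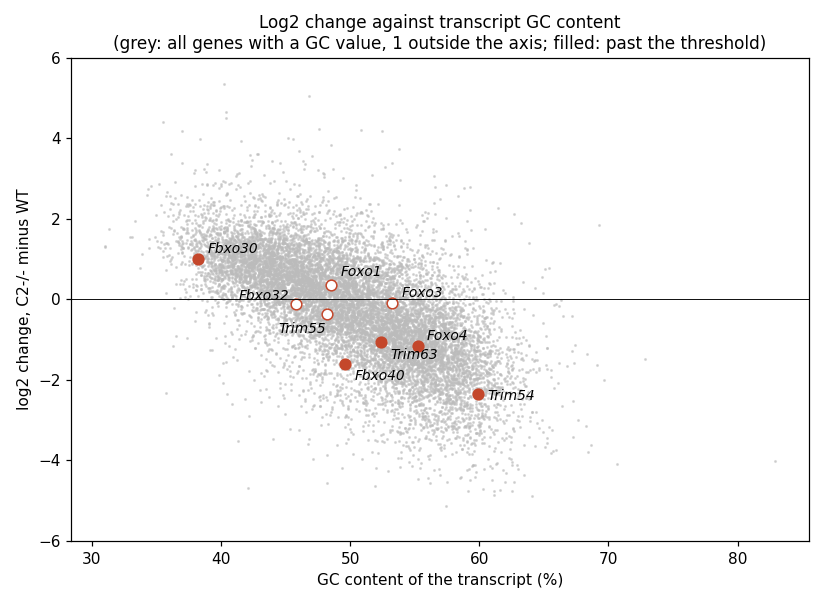
Log2 change, C2-/- minus WT (y axis), against the GC content of the transcript in percent (x axis) for all genes with a GC value (grey) and the 9 genes (red, filled where past the threshold). Fbxo30, with the lowest GC content of the set, is the gene that rose, and Trim54, with the highest, is the gene that fell most.

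The position of the 9 genes on the GC scale was set against all genes in bands. Under 45% GC, 52.1% of 2820 genes rose and 1.21% fell. At or above 55% GC, 2.12% of 2978 genes rose and 57.7% fell. Fbxo30 lay in the first of these bands and Trim54 and Foxo4 in the last. Fbxo40, at 49.6% GC, lay in the band from 45% to 50%, where the median log2 change was 0.24 and 8.26% of 3147 genes fell. Trim63, at 52.4%, lay in the band from 50% to 55%, where the median was -0.60 and 31.8% of 3231 genes fell.

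Levels were compared between genes per length of transcript, as log2 CPM per 1000 bases. In WT muscle Trim54 was the highest of the set at 7.98, followed by Trim63 at 6.48, Foxo4 at 6.07, Fbxo32 at 5.71, Fbxo40 at 5.03 and Trim55 at 4.59. Foxo1 at 1.74, Fbxo30 at 1.598 and Foxo3 at -1.13 were far lower. Neighbours in this order kept it in all 4 WT libraries except Fbxo40 over Trim55, which held in 3, and Foxo1 over Fbxo30, which held in 1. In C2-/- muscle the leading genes lay closer together, with Trim54 at 5.62, Fbxo32 at 5.59, Trim63 at 5.43 and Foxo4 at 4.92. None of these neighbouring pairs kept its order in all 3 C2-/- libraries. Trim55 at 4.24, Fbxo40 at 3.42, Fbxo30 at 2.59, Foxo1 at 2.10 and Foxo3 at -1.23 followed. The order of Trim55 and Fbxo40 was thus the opposite of that in WT, and Trim55 was above Fbxo40 in 2 of 3 C2-/- libraries.

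Ratios between members were then taken within each library, since a ratio does not depend on how the library was scaled. Trim63 relative to Fbxo32 was -1.17, -1.03, -1.10 and -1.17 on the log2 scale in WT replicates 1 to 4 and -1.85, -2.49 and -1.79 in C2-/- replicates 1 to 3. The 4 WT libraries, WT replicate 4 included, lay close together and apart from all C2-/- libraries, and the mean ratio was 0.93 lower in C2-/-. This was also the case for Fbxo40 relative to Fbxo32 (difference -1.49), for Trim54 relative to Trim63 (-1.31) and, in the other direction, for Fbxo30 relative to Fbxo32 (1.12). Each of these 4 had a two-sided exact permutation p of 0.0286, the smallest that the 35 splits of 7 libraries allow, and a Benjamini-Hochberg adjusted value of 0.05 over the 7 ratios computed, which is not under the threshold. Trim55 relative to Trim63 (0.70, exact p = 0.257), Foxo4 relative to Foxo1 (-1.51, exact p = 0.114) and Foxo3 relative to Foxo1 (-0.46, exact p = 0.743) had overlapping groups. The genes of a ratio differ in GC content, and the GC correction changed these differences. Fbxo40 relative to Fbxo32 was still lower in C2-/-, with a difference of -0.95 (exact p = 0.0286, adjusted value 0.2). The other 3 were at 0.08 for Trim63 relative to Fbxo32 (exact p = 0.629), 0.28 for Fbxo30 relative to Fbxo32 (exact p = 0.371) and -0.22 for Trim54 relative to Trim63 (exact p = 0.771).

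**Figure D4:**
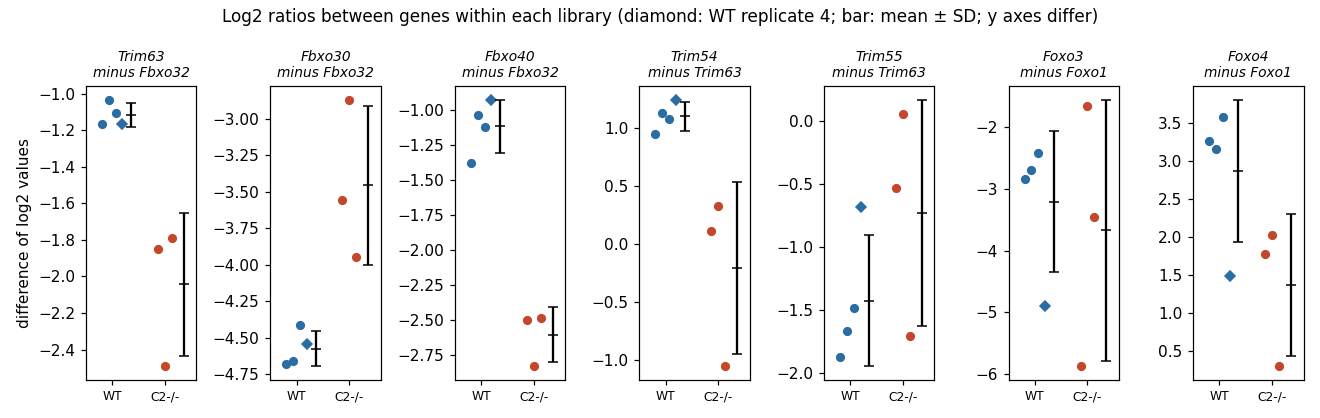
Difference of the log2 values of 2 genes within each library (y axis, log2 units, scaled separately in each panel) for 7 pairs of genes in 4 WT libraries (blue, WT replicate 4 as a diamond) and 3 C2-/- libraries (red), with the mean and SD as black bars. The groups are apart in the first 4 panels and overlap in the last 3, where WT replicate 4 lies away from the other WT libraries.

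The genes that FoxO factors are known to drive were then read as a list. Of 48 measured FoxO target genes, which include Fbxo32, Trim63 and Fbxo30, 9 rose, 14 fell and 25 did not pass (limma, adjusted over all genes), where 20.2% of all genes rose and 25.0% fell. After median centring, the balance turned to 14 higher and 12 lower, beside 24.8% and 21.2% of all genes. The share past the threshold, 47.9%, was near the 45.2% of all genes. Their median log2 change was -0.14, and the median of all genes was also -0.14. Cat, which encodes catalase, rose by 2.19 on the log2 scale, from 6.96 ± 0.82 (SD, n = 4) to 9.16 ± 0.51 (SD, n = 3), and the rise was 2.16 after GC correction. WT replicate 4 stood at 8.18, between the other WT libraries and C2-/-. The metallothionein genes Mt2 (2.10) and Mt1 (1.87) also rose, with groups that overlapped, 19 to 113 reads per WT library and their highest values in C2-/- replicate 3. After GC correction both still passed, at 3.21 and 2.54. The largest falls were those of Tfeb, the master regulator of lysosome genes (-2.72), of the autophagosome gene Map1lc3a (-2.26) and of the F-box gene Fbxo31 (-2.06). Tfeb remained past the threshold after GC correction, at -0.77, whereas Map1lc3a (-0.31) and Fbxo31 (-0.49) did not. In that correction 9 targets were higher and 6 lower, beside 12.3% and 8.33% of all genes, and the median was -0.17. The balance turned to 6 higher and 10 lower when the correction was run only on genes whose log2 values averaged 3 or more, beside 14.5% and 14.1% of all such genes.

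Upstream of FoxO, 18 of 50 measured regulators rose and 10 fell, beside 20.2% and 25.0% of all genes, with a median log2 change of 0.47 that was 0.22 after GC correction. Pik3ca, the catalytic subunit of phosphoinositide kinase that activates Akt, rose by 1.68, from 6.32 ± 0.26 (SD, n = 4) to 7.998 ± 0.34 (SD, n = 3), and by 0.72 after GC correction, where it still passed. The Hippo kinase gene Stk3 (1.77) and Ppargc1a (1.61), a coactivator that opposes FoxO-driven wasting, rose as deposited and did not pass after GC correction, at 0.95 and 0.70. Sirt3, a mitochondrial deacetylase, fell by 2.61 on 4 to 29 reads per C2-/- library. Stat3, the cytokine-activated transcription factor, fell by 1.63. Both also passed after GC correction, at -1.78 and -1.03. Irs2 fell by 2.05 as deposited on 1 to 17 reads per C2-/- library and did not pass after correction, at -0.78. After GC correction 5 regulators were higher and 3 lower, beside 12.3% of all genes higher and 8.33% lower.

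Of 29 other ubiquitin ligases linked to muscle wasting or upkeep, 9 rose, 10 fell and 10 did not pass, beside 20.2% of all genes that rose and 25.0% that fell. Their median log2 change was 0.11 and turned to -0.13 after GC correction, where 5 were higher and 2 lower, beside 12.3% of all genes higher and 8.33% lower. With the same minimum on the mean, that correction gave 2 higher and 4 lower, beside 14.5% and 14.1% of all such genes. Median centring without GC correction gave 12 higher and 9 lower, beside 24.8% and 21.2% of all genes. The direction of this list's balance was thus not stable, and the balance of all genes turned with median centring as well. The HECT ligase gene Wwp1 (1.36) and the apoptosis inhibitor gene Xiap (1.35) rose as deposited, and their changes after GC correction were 0.23 and -0.06. Klhl40, a cullin adaptor that stabilises thin-filament proteins, fell by 2.69. Mul1, a mitochondrial ligase, fell by 2.53 on 14 to 35 reads per C2-/- library. Both passed after GC correction, at -1.08 and -1.33. Neurl2 fell by 2.90 with 1 to 33 reads per C2-/- library and did not pass after correction, at -1.17.

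The E2 enzymes hand ubiquitin to these ligases. Among 26 measured partner subunits, E2 enzymes and ubiquitin genes, 10 rose, 6 fell and 10 did not pass, beside 20.2% of all genes that rose and 25.0% that fell. Their median log2 change of 0.41 was gone after GC correction (-8.48e-06), where 2 were higher and 2 lower, beside 12.3% of all genes higher and 8.33% lower. The E2 genes Ube2g1 (2.02), Ube2d1 (1.78) and Ube2d3 (1.66) rose most, and the ubiquitin gene Ubb fell most, by 1.72. After GC correction Ube2g1, Ube2d1 and Ubb were still past the threshold, at 1.03, 1.36 and -0.85, whereas Ube2d3 was at 0.55 and did not pass. WT replicate 4 lay between the other WT libraries and the C2-/- libraries for all 3 E2 genes.

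Of 27 measured substrates and binding partners of the ligases, 14 fell, 2 rose and 11 did not pass, beside 25.0% of all genes that fell and 20.2% that rose. Their median log2 change was -0.69 as deposited and -0.088 after GC correction. The list includes the deleted gene Mybpc2, and many of its members are fast-fibre sarcomere genes like those of the fibre markers above. Beside Irs1, the gene that rose was Vim, the intermediate filament protein vimentin (1.31, and 2.16 after GC correction), which is abundant in fibroblasts and other non-fibre cells. Apart from Mybpc2 itself (-11.82), the largest falls were those of Trip6 and of the Z-disc gene Myoz1 (-2.61). Trip6 had 10 to 78 reads per WT library and 0 to 3 per C2-/- library, and was at least 3.71-fold lower when the highest floor of 3 reads in a C2-/- library stood for that group. It did not pass after GC correction (limma adjusted p = 0.148). Myoz1 went from 11.14 ± 0.13 (SD, n = 4) to 8.53 ± 0.47 (SD, n = 3) and also passed after GC correction, at -1.64. After that correction 6 of the list were lower and 3 higher, beside 8.33% of all genes lower and 12.3% higher.

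**Figure D5:**
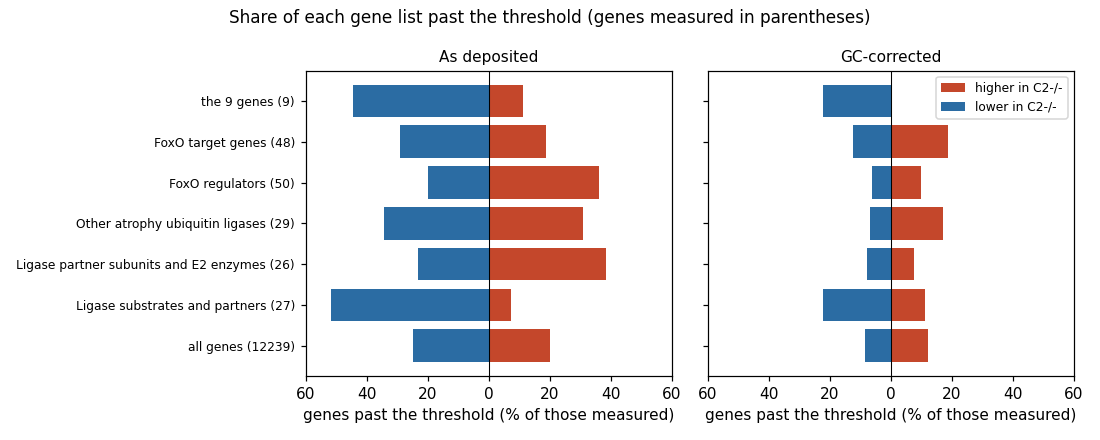
Share of each list past the threshold, in percent of the genes measured (x axis, higher in C2-/- to the right in red and lower to the left in blue), as deposited (left) and after GC correction (right), with all genes as the bottom bar (12176 of them in the corrected panel). As deposited, 14 of 27 substrates were lower and 18 of 50 regulators higher, and both counts were smaller after the correction.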

How the data were processed

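RNA of 4 WT and 3 C2-/- TA muscles was selected with oligo(dT) beads and sequenced as DNA nanoballs. The authors aligned the reads to GRCm38.p6 with HISAT, counted them per gene with featureCounts 1.5.2, normalised them with the TMM factors of edgeR and deposited log2 CPM values (CPM, reads per 1000000 reads) for 12239 genes. Their strand setting and filter on low genes are not given in the sources used here. A second deposited table held the authors' own limma/voom comparison and was not used. No per-sample column was left out (0 columns).

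Each deposited value was the log2 of a whole read number plus 0.5 over the effective library size. Whole reads were recovered for 100% of the values (tolerance 0.01 reads). The floor of 3 reads was 0.195 to 1.12 CPM across libraries and covers counting error only. Because 0.5 was added before the log, a change resting on few reads varies with depth.

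The main test was limma 3.58.1 (R 4.3.3) with a mean-variance trend on the deposited log2 values, genotype as the only term, two-sided, with Benjamini-Hochberg adjustment over 12239 genes. The threshold was 0.05 for the adjusted p together with 1.5-fold for the change. The fit was tested on simulated reads without a shift tied to GC content, and that feature of the data was not covered. The GC correction removed, per library, a natural spline on transcript GC content (5 degrees of freedom), which was matched for 12176 genes (99.5%). Ratios between members were compared by an exact permutation test over 35 splits. The alternatives were voom on the recovered reads, a fit without the trend, library quality weights, quantile normalisation, median centring, GC with length, a minimum mean log2 of 3, a pseudocount of 2, thinning to 2613277 reads, a replicate block, other thresholds and each library left out. The comparison of WT replicate 4 alone with C2-/- was added after the data were seen, and its spread comes from the C2-/- libraries only.

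The members and gene lists were chosen with earlier results of these data known. The text names all 9 members, the 3 largest rises and 3 largest falls past the threshold of each list, the 3 genes closest in pattern to each of 4 members, and Mybpc2, except that 3 genes this rule names are not reported here. Marker lists of 10 cell types were read for the labelled tissue. Same-numbered libraries of the groups did not vary together (Pearson's r of their deviations across genes 0.053, -0.064 and -0.053), so the numbers were not taken to pair animals.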

Additional observations from a re-analysis of the deposited data

Results flagged for a closer look

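Values of 4 WT libraries were screened for a library that stood far from the others (Dixon's ratio above its critical value). Of 47 values screened, 7 were singled out, and chance singles out about 1 in 20, or 2.35 here. All 7 were those of WT replicate 4, the shallowest WT library. This library held 4683853 reads in the table, where the other WT libraries held 14929214 to 15464499. The log2 ratio of Foxo3 to Foxo1 was -4.90 in this library and -2.83 to -2.41 in the others, with 8 Foxo3 reads behind it. Catalase (Cat) stood at 8.18 against 6.39 to 6.65, the E2 gene Ube2g1 at 8.23 against 7.09 to 7.20 and the kinase gene Stk3 at 3.90 against 2.37 to 2.51, each toward the C2-/- values. The ligase genes Fbxo31, at 7.16 against 7.69 to 7.80, and Neurl2, at 3.90 against 4.69 to 4.83, were lower in this library than in the other WT libraries, again toward the C2-/- values. No member's own log2 value was singled out.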

How the results depend on the processing

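Fbxo40 and Trim54 kept their call under every alternative run, with log2 changes of -1.81 to -1.35 and -2.54 to -0.69. After the GC correction 2 members and 2508 genes passed, and 15 FoxO targets, 8 regulators, 7 other ligases, 4 partners and E2 genes and 9 substrates. Trim63 (-0.47), Foxo4 (-0.091) and Fbxo30 (-0.27) lost their call, Fbxo30 with a turn of sign, and Foxo3 was at 0.63. The ratios of Trim63 to Fbxo32 (0.080) and of Foxo3 to Foxo1 (0.33) turned. With length added, the counts were 2, 2513, 13, 8, 7, 5 and 10, Trim63 was at -0.50, Fbxo30 at -0.24, Foxo3 at 0.66 and Foxo4 at 0.0090, and the same ratios were 0.051 and 0.38. With the GC correction and a minimum mean log2 of 3, without length, 2 members, 2230 genes, 16 targets (6 higher, 10 lower), 7 regulators, 6 other ligases (2 higher, 4 lower) and 4 partners passed, with Trim63 at -0.61, Fbxo30 at -0.25 and Foxo4 at -0.27. With WT replicate 4 as the only WT library, the counts were 2 members, 554 genes, 6 targets, 3 regulators, 5 other ligases, 2 partners and 7 substrates. Trim63 (-0.56), Fbxo30 (1.41) and Foxo4 (-0.76) lost their call there, and Fbxo32 (0.32), Foxo1 (-0.64) and Foxo3 (0.60) changed sign. At an adjusted p under 0.01, 3216 genes, 12 targets, 16 regulators and 10 partners passed, and Fbxo30 (0.995) did not. Foxo3 was at 0.20 under quantile normalisation, 0.061 under median centring, 0.15 with a pseudocount of 2 and 0.24 after thinning, and Fbxo32 was at 0.036 under median centring, where 14 targets were higher and 12 lower. The cause of these shifts was not tested. The median log2 change of all genes was -0.14 as deposited, 0.02 after median centring and 0.05 after quantile normalisation.

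Leaving out each library in turn gave 4 to 5 members and 4095 to 6136 genes past the threshold. Fbxo30 ranged from 0.71 to 1.17 and lost its call without C2-/- replicate 2, Fbxo32 ranged from -0.27 to 0.0025, Trim55 from -0.51 to -0.12, Foxo1 from 0.066 to 0.69, Foxo3 from -0.95 to 1.15 and the ratio of Foxo3 to Foxo1 from -1.46 to 0.65. The ratio of Trim55 to Trim63 ranged from 0.31 to 1.19 and that of Foxo4 to Foxo1 from -1.97 to -0.97. The FoxO targets past the threshold numbered 14 to 26, with 14 (4 higher, 10 lower) without WT replicate 2. A replicate block, fitted although the numbers do not pair the animals, gave 5 members and 5901 genes. Foxo3 rests on 1 to 59 reads per library.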

Other observations

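The genes whose values moved most like those of a member were sought among 7816 genes averaging at least 3 on the log2 scale, by the root mean square difference of centred log2 values over the 7 libraries. For Fbxo32, whose own values varied by 0.26 about their mean, these were Surf1 (0.073), Eif1 (0.084) and Wdr48 (0.094). Trim63, with a variation of 0.63, was followed most closely by Eif2b5 (0.080), Wipi2 (0.088) and Siah2 (0.119). For Foxo1, with a variation of 0.55, Jak2 (0.088), Psmd10 (0.117) and Enoph1 (0.135) came closest. For Foxo3, whose own variation was 1.23, the nearest were Helb (0.459), Wrnip1 (0.532) and Nup93 (0.597). With 7 libraries and this many genes, a close pattern is a description of these libraries only.

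Markers of other cell types were read beside the members, where 20.2% of all genes were higher and 25.0% lower in C2-/-. Of 9 macrophage markers 3 were higher and 1 lower in C2-/-, and of 8 endothelial markers 4 were lower, with summed levels of 350 to 600 CPM in WT and 273 to 355 in C2-/-. The 4 measured adipocyte markers summed to 159 to 365 in WT and 471 to 633 in C2-/-, with 1 higher. Among 7 satellite cell and regenerating fibre markers 1 was higher and 3 were lower, with sums of 91.5 to 170 in WT and 32.9 to 56.9 in C2-/-. None of 6 slow-fibre markers passed (limma, adjusted over all genes). Among 6 smooth muscle and pericyte markers, 5 Schwann cell markers and 1 erythroid marker, 1 of each list was lower.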
